A study of Homo sapiens with 2 samples.

Results

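The genes described here are the RAB small GTPases measured in HEL cells, a human erythroleukemia cell line, after 24 h with L1 or with the DMSO vehicle. L1 is a derivative of 3,3′-diindolylmethane, and it was given at 1 µM, while the control cells received 0.5% DMSO. Each condition was sequenced as 1 RNA library from cells labelled WT, so no spread between cultures could be estimated and no test was run. Whether the L1-treated cells carried the same share of DMSO was not stated in the labels. The members were all genes with a deposited FPKM value whose symbol was RAB, a number and at most 1 letter from A to F. This gave 51 of the 13924 genes with an FPKM value, and 13 more genes of the same naming pattern were in the count table without an FPKM value. A gene had an FPKM value only where both libraries were above 1 CPM (counts scaled to a common library size), so a RAB gene that was nearly absent from 1 library could not be a member.

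RAB proteins form a branch of the RAS superfamily. Each RAB sits on its own set of membranes, where it is switched on by binding GTP and off by hydrolysing it to GDP. Guanine nucleotide exchange factors (GEFs) load GTP, GTPase-activating proteins (GAPs) speed up its hydrolysis, and RABs in the GTP form recruit effectors such as tethers and motor adaptors that move and dock vesicles. A geranylgeranyl lipid anchors the protein in the membrane, and GDP dissociation inhibitor (GDI) takes the inactive form back to the cytosol. Maturing red cells depend on this traffic for the uptake and recycling of the transferrin receptor, and megakaryocytes depend on it for their granules.

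The libraries held 32556872 counts for DMSO and 27135647 for L1, and their scaling ratio by TMM (trimmed mean of M values, a method that sets library sizes from genes that differ little) was 1.16. The erythroid markers GATA1, TAL1, KLF1, HBG1, HBG2 and EPOR were measured in both libraries. Of 4 megakaryocytic markers, ITGA2B and GP9 had FPKM values, PF4 was at 0 in both, and PPBP had 17 counts under DMSO and 8 under L1. CD3E, MS4A1, EPCAM and ALB, which mark other cells, were at 0 in both, and COL1A1 had 0 counts under DMSO and 5 under L1. In a culture such as this one, fewer cells of a type and less RNA per cell cannot be told apart. All intervals below are exact 95% Clopper-Pearson intervals on the log2 ratio of L1 over DMSO. They cover counting error only and compare these 2 libraries, not the conditions.

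Among the 51 members, RAB6A and RAB31 had the largest difference between the libraries, 6.96-fold and 4.91-fold higher under L1. RAB28, RAB29, RAB7A and RAB5A were also more than 2-fold higher, while RAB5B and RAB3A were more than 2-fold lower. The remaining 43 members lay within 2-fold. At 2-fold, 6 of the 51 members (11.8%) were higher under L1, beside 2.85% of all genes with an FPKM value. The 2 lower members made up 3.92% of the RABs, beside 2.55% of all genes. The whole counting interval lay past 2-fold for the same 6 higher members (all genes, 1.79%) and for RAB5B (all genes, 1.47%), but not for RAB3A. At 1.5-fold, 8 members were higher (all genes, 7.63%) and 5 were lower (all genes, 8.16%), together 25.5% of the members and 15.8% of all genes.

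The family as a whole was not displaced to one side. The median log2 ratio of the members, with a prior count of 2, was -0.06, and that of all genes was -0.02. Above 0 lay 23 of the 51 members, beside 47.3% of all genes. The middle of the family was somewhat wider than that of all genes, with quartiles of -0.32 and 0.24 for the members and of -0.26 and 0.20 for all genes. The SD over the members was 0.75, against 0.51 over all genes, and 34 members lay within 0.5 of 0 on the log2 scale. The counting interval excluded 0 for 37 members, and for 62.0% of all genes. The log2 ratio of the members showed little relation to exonic length, the merged length of all annotated exons of a gene (Spearman correlation of -0.08 over the 51 genes). It also showed little relation to the FPKM under DMSO (correlation of -0.06), and both values are descriptions across genes.

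**Figure D1:**
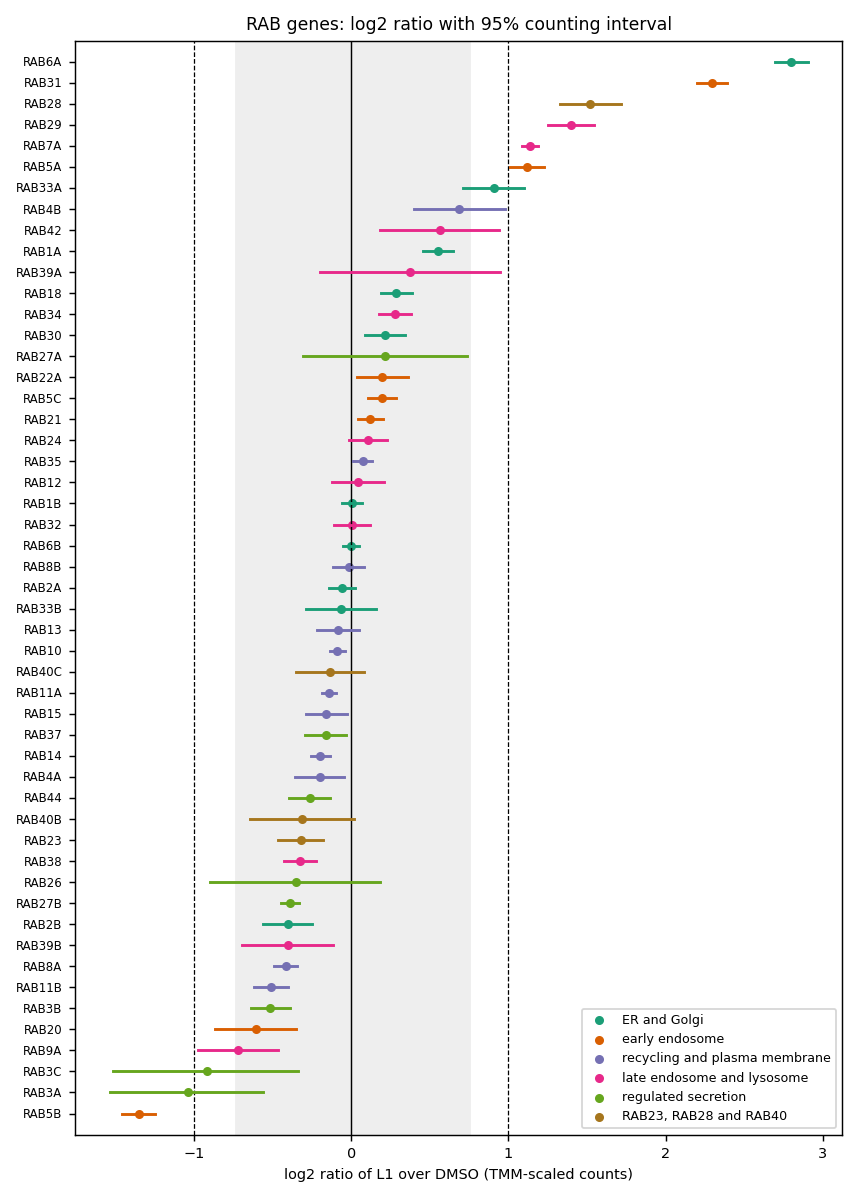
Log2 ratio of L1 over DMSO for each of the 51 RAB genes (points; TMM-scaled counts, no prior count) with its exact 95% counting interval (bars), sorted and coloured by the compartment in which the RAB works. The grey band spans the 5th to the 95th percentile of all genes with an FPKM value (-0.73 to 0.75) and dashed lines mark 2-fold; 6 RABs lie beyond the upper line and RAB5B and RAB3A beyond the lower one.

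The level of the RAB genes, given as FPKM and therefore per transcript length, spanned from 0.177 for RAB27A to 72.9 for RAB1B under DMSO. The median member was at 7.37 FPKM under DMSO and 8.29 under L1, and the median of all genes was 5.19 and 5.11. The summed FPKM of the 51 members was 745 under DMSO and 817 under L1. The order of the members was largely kept, with a Spearman correlation of 0.90 between the libraries across genes. RAB6A moved from rank 33 to rank 6 of the 51 levels, RAB31 from 30 to 11 and RAB7A from 13 to 4. RAB5B moved the other way, from rank 18 to 31.

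The 7 members most abundant under DMSO lay well within 2-fold. RAB1B, which acts between the endoplasmic reticulum (ER) and the Golgi, had 4520 counts under DMSO and 3914 under L1 (72.9 and 73.2 FPKM, log2 ratio 0.01). RAB10, which carries vesicles to the plasma membrane, had 7613 and 6177 counts (65.5 and 61.6 FPKM, -0.09). RAB11A, the RAB of the recycling endosome, had 9877 and 7713 counts (54.7 and 49.5 FPKM, -0.14). These 3 genes were the highest of the family under both conditions. RAB38 and RAB32, a related pair known for lysosome-related organelles such as platelet dense granules and melanosomes, were at 42.4 and 40.0 FPKM under DMSO. RAB32 had 1355 and 1173 counts (40.2 FPKM under L1, log2 ratio 0.00), and RAB38 had 1930 and 1325 counts (33.7 FPKM under L1, -0.33). RAB14, which works between the Golgi and endosomes, had 5048 and 3796 counts (36.9 and 32.1 FPKM, -0.20). RAB35, a RAB of fast recycling at the plasma membrane, had 4395 and 3985 counts (34.4 and 36.2 FPKM, 0.07). Among these 7 genes the log2 ratios spanned -0.33 to 0.07, with an interval of -0.43 to -0.23 for RAB38. Next by level under DMSO came RAB6B (-0.00), RAB27B (-0.39), RAB11B (-0.51) and RAB8A (-0.42).

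**Figure D2:**
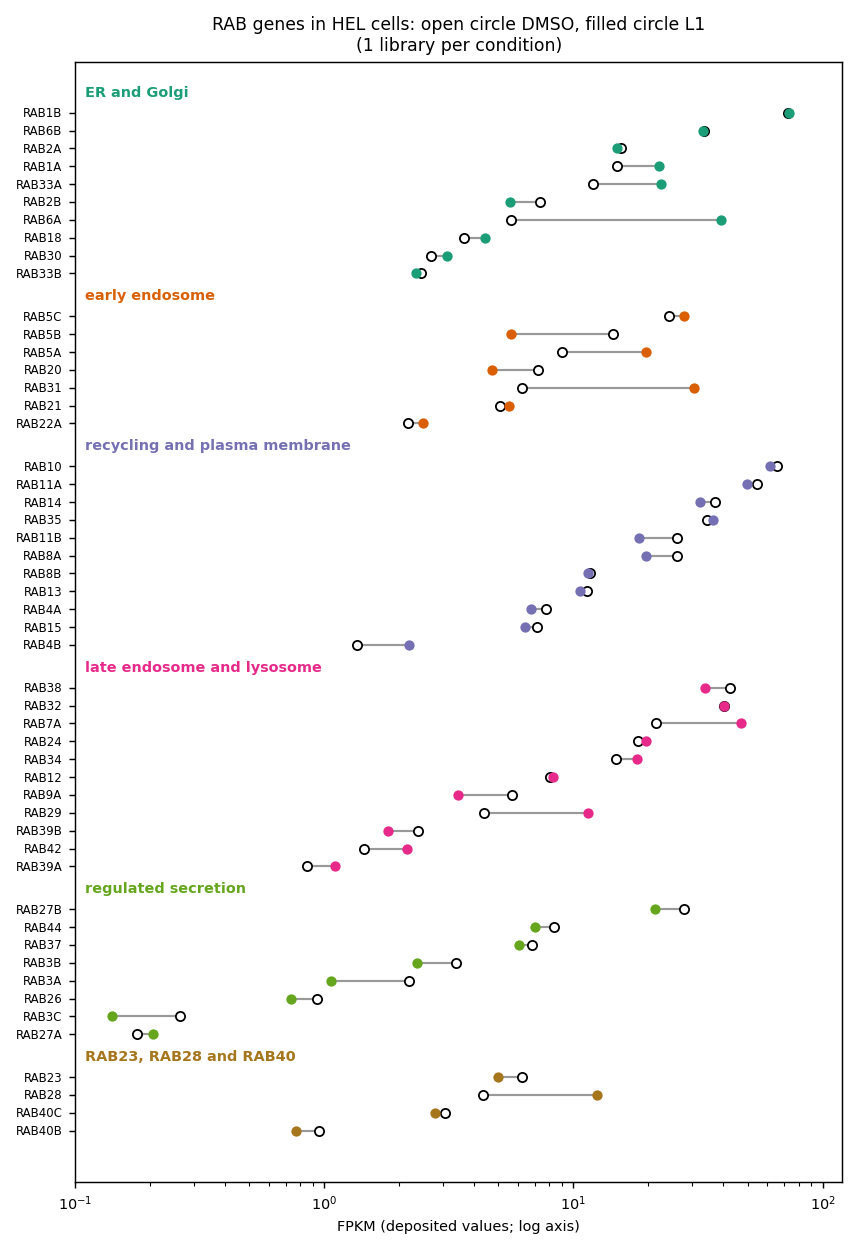
Deposited FPKM of the 51 RAB genes (log axis) under DMSO (open circles) and L1 (filled circles), grouped by compartment and sorted by the DMSO level. Most pairs of circles lie close together, and the long lines belong to RAB6A, RAB31, RAB28, RAB29, RAB7A and RAB5A, higher under L1, and to RAB5B and RAB3A, lower under L1.

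Among the RABs of the ER and Golgi, RAB6A stood out. RAB6A, at chr11:73675638-73761137 on the minus strand (GENCODE 29, GRCh38), encodes the Golgi RAB that drives transport within the Golgi, back to the ER and out to the cell surface. It had 873 counts under DMSO and 5239 under L1 (5.61 and 39.0 FPKM), a log2 ratio of 2.80 (interval 2.69 to 2.90). Its paralogue RAB6B, a closely related isoform best known from neurons, had 6401 and 5509 counts (33.3 and 33.2 FPKM, log2 ratio -0.00, interval -0.06 to 0.05). RAB6A thus made up 14.4% of the summed RAB6 FPKM under DMSO and 54.05% under L1, and the sum was 38.9 and 72.2 FPKM. Of the 31-base words of RAB6A transcripts, 22.9% also occurred in another gene, mostly in RAB6D, an intronless relative. RAB6D had 32 and 41 counts and RAB6C had 16 and 12. With the counts of RAB6A, RAB6C and RAB6D added together, the log2 ratio was 2.74 (2.63 to 2.84).

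RAB33A, a Golgi RAB linked to autophagosome formation, had 359 counts under DMSO and 580 under L1 (11.95 and 22.4 FPKM), a log2 ratio of 0.91 (0.71 to 1.10). Its paralogue RAB33B had 366 and 302 counts (2.44 and 2.34 FPKM, -0.06). RAB1A, which shares the ER to Golgi step with RAB1B, had a log2 ratio of 0.55 (0.46 to 0.65). RAB18, a RAB of lipid droplets and the ER, was at 0.29, and RAB30, a Golgi RAB, at 0.21. RAB2A, on the pre-Golgi intermediate, was at -0.06, and its paralogue RAB2B was at -0.41 (-0.56 to -0.25). The 10 members of the group had a median of 0.11, and 6 of them lay above 0 (all genes, 47.3%).

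The early endosomal RABs diverged most. RAB31, at chr18:9708165-9862551 on the plus strand, encodes a RAB of the trans-Golgi network and endosomes. It had 1085 counts under DMSO and 4592 under L1 (6.23 and 30.6 FPKM), a log2 ratio of 2.29 (2.20 to 2.39). Only 0.199% of its words occurred in another gene, and no annotated gene overlapped its exons. RAB22A, its closest relative, which sorts cargo in early endosomes, had 641 and 634 counts (2.18 and 2.49 FPKM, log2 ratio 0.20, interval 0.04 to 0.36). The summed level of the pair was 8.41 FPKM under DMSO and 33.1 under L1, and RAB31 was the larger part in both, 74.1% and 92.5%.

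RAB5 proteins control the fusion of endocytic vesicles with early endosomes, and the 3 isoforms are held to share most of their functions. Their RNAs differed in opposite directions. RAB5A, at chr3:19947079-19985175 on the plus strand, had 1074 counts under DMSO and 2012 under L1 (8.97 and 19.5 FPKM), a log2 ratio of 1.12 (1.01 to 1.23). RAB5B, at chr12:55973913-55996683 on the plus strand, had 2982 and 1007 counts (14.4 and 5.63 FPKM), a log2 ratio of -1.35 (-1.46 to -1.25). RAB5C had 2121 and 2096 counts (24.2 and 27.7 FPKM, 0.20, interval 0.11 to 0.28). RAB5A was 18.9% of the summed RAB5 FPKM under DMSO and 36.9% under L1, while RAB5B was 30.2% and 10.7%. RAB5C supplied 50.9% and 52.5%. The sum of the 3 genes was 47.5 FPKM under DMSO and 52.8 under L1, so the make-up of the subfamily differed far more between the libraries than its total. For RAB5C, 29.2% of the words occurred in another gene, and added to the genes that overlap it in a chain, which include KAT2A with 3137 and 2091 counts, its log2 ratio was -0.12.

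RAB20, an endosomal RAB known as a hypoxia-regulated gene, had 345 counts under DMSO and 195 under L1 (7.20 and 4.72 FPKM), a log2 ratio of -0.61 (-0.87 to -0.35). RAB21, which traffics integrins, was at 0.12 (0.04 to 0.20). In all, the 7 early endosomal members ran from -1.35 to 2.29 with a median of 0.20. The counting interval of each excluded 0 (all genes, 62.0%).

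**Figure D3:**
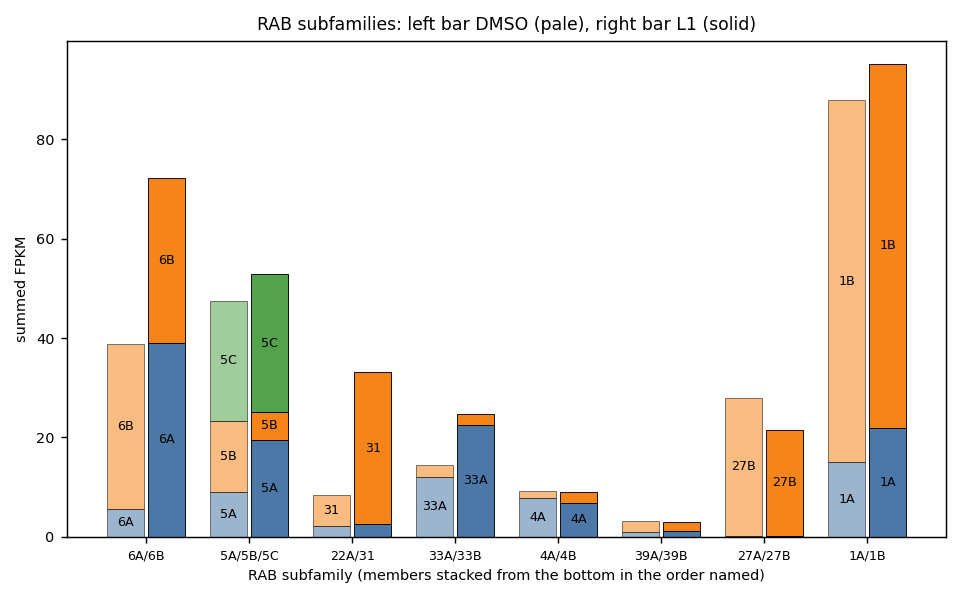
Summed FPKM of the 8 RAB subfamilies whose members differed most among themselves in log2 ratio, under DMSO (left, pale bars) and L1 (right, solid bars), with each member stacked in the order named under the bars. RAB6A stands at 5.61 and 39.0 FPKM beside RAB6B at 33.3 and 33.2, RAB5A and RAB5B change order within a RAB5 sum of 47.5 and 52.8 FPKM, and RAB31 makes up most of the sum with RAB22A.

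The RABs of late endosomes and lysosomes included 2 higher members. RAB7A, at chr3:128726122-128814796 on the plus strand, encodes the RAB that directs late endosomes and autophagosomes to fuse with lysosomes. It had 4896 counts under DMSO and 9293 under L1 (21.4 and 47.1 FPKM), a log2 ratio of 1.14 (1.09 to 1.19). RAB29, at chr1:205767986-205775460 on the minus strand, encodes a RAB of the Golgi and lysosomes that binds the kinase LRRK2. It had 541 and 1228 counts (4.36 and 11.5 FPKM), a log2 ratio of 1.40 (1.25 to 1.54), and 7.93% of its words occurred in another gene. LRRK2 itself had 63 and 57 counts.

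RAB9A, which returns mannose 6-phosphate receptors from late endosomes to the Golgi, was lower. It had 380 counts under DMSO and 199 under L1 (5.66 and 3.43 FPKM), a log2 ratio of -0.72 (-0.97 to -0.47). Its paralogue RAB9B had 6 counts in each library and no FPKM value. RAB34, linked to lysosome position and to cilia, was at 0.28 (0.17 to 0.38), and RAB12, which steers the transferrin receptor to lysosomes, was at 0.04. RAB24, an atypical RAB linked to autophagy, was at 0.10 and shared 40.7% of its words, chiefly with the overlapping gene MXD3. RAB42 was at 0.56 (0.18 to 0.94), RAB39A at 0.37 (-0.20 to 0.95) and RAB39B at -0.41 (-0.69 to -0.12). Of the 11 members, 8 lay above 0 (all genes, 47.3%), and the median was 0.10.

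None of the 11 recycling and plasma membrane RABs passed 2-fold, and 9 of them lay below 0. Among all genes, 2.85% were 2-fold higher, 2.55% were 2-fold lower and 47.3% lay above 0. RAB11B, the second RAB of the recycling endosome, had a log2 ratio of -0.51 (-0.62 to -0.40), with 26.1 FPKM under DMSO and 18.3 under L1. RAB8A, which takes vesicles from the Golgi to the plasma membrane and cilia, was at -0.42 (-0.49 to -0.35), and its paralogue RAB8B was at -0.02 (-0.11 to 0.08). RAB15 was at -0.16, and RAB13, a RAB of cell junctions, was at -0.09, with 27.2% of its words shared.

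RAB4A and RAB4B, the RABs of fast recycling from early endosomes, lay on opposite sides of 0. RAB4A had 815 counts under DMSO and 611 under L1 (7.75 and 6.73 FPKM), a log2 ratio of -0.20 (-0.36 to -0.05). RAB4B had 170 and 236 counts (1.36 and 2.19 FPKM), a log2 ratio of 0.69 (0.40 to 0.98). The value of RAB4B is uncertain, since 41.1% of its words are shared and 2 annotated readthrough genes, transcripts that run from one gene into the next, cover it. RAB4B-EGLN2 had 187 counts under DMSO and 0 under L1, at least 53.8-fold lower against a floor of 3 counts in that library, and MIA-RAB4B had 14 and 1. All genes of that locus together had 2082 and 2373 counts, a log2 ratio of 0.40 (0.32 to 0.49). Most of these counts were of EGLN2 (1711 and 2136), whose exons do not overlap those of RAB4B directly. The sum therefore does not show whether RAB4B itself was higher. The group median was -0.14.

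RABs of regulated secretion were the lowest group, with 7 of 8 members below 0 and a median of -0.36, while 47.3% of all genes lay above 0. RAB3A, at chr19:18196784-18204074 on the minus strand, encodes the RAB of synaptic and other secretory vesicles. It had 124 counts under DMSO and 52 under L1 (2.18 and 1.06 FPKM), a log2 ratio of -1.04 (-1.54 to -0.56). On this small number of counts the 2-fold call was not secure, and it was lost under several of the other settings. On the opposite strand MPV17L2 overlaps RAB3A, with 456 and 542 counts, and reads of the 2 genes cannot be told apart if strand was ignored in the counting, which the sources used here do not state. The same limit applies to RAB6A, RAB5A and RAB5B, which AP002770.1, PP2D1 and AC034102.1 overlap on the opposite strand. RAB3B had 1372 and 828 counts (3.38 and 2.36 FPKM, -0.52, interval -0.64 to -0.39), and RAB3C had 81 and 37 (0.265 and 0.140 FPKM, -0.92, interval -1.52 to -0.34). All 3 RAB3 genes with an FPKM value were thus lower in the L1 library, and their sum was 5.83 FPKM under DMSO and 3.56 under L1. RAB27B, a granule RAB of platelets, was the most abundant of the group, with 27.8 FPKM under DMSO and 21.2 under L1 (log2 ratio -0.39, interval -0.45 to -0.33). RAB27A, known from lytic granules and melanosomes, was scarce, at 0.177 and 0.206 FPKM from 64 counts in each library (log2 ratio 0.21, and -0.19 summed with the overlapping gene PIGBOS1). The log2 ratios of RAB26, RAB44 and RAB37 were -0.35, -0.26 and -0.16.

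RAB28, at chr4:13361354-13484365 on the minus strand, encodes a RAB of cilia and photoreceptors. It had 305 counts under DMSO and 754 under L1 (4.32 and 12.4 FPKM), a log2 ratio of 1.52 (1.33 to 1.72). The counts of its pseudogene RAB28P5 were 44 and 37, and 2.20% of RAB28 words were shared. RAB23, a negative regulator of hedgehog signalling, was at -0.32 (-0.47 to -0.18). RAB40B and RAB40C, which join RAB and ubiquitin ligase parts in 1 protein, were at -0.31 (-0.65 to 0.02) and -0.14 (-0.35 to 0.08).

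The 13 RAB genes without an FPKM value were low or absent in at least 1 library. RAB36, RAB17, RAB25, RAB19, RAB1C and RAB7B were at 0 in both libraries. RAB3D had 14 counts under DMSO and 11 under L1, RAB40A had 6 and 7, and RAB41 had 0 and 2. RAB43, a Golgi RAB, had 126 counts under DMSO and 4 under L1, a log2 ratio of -4.76 (-6.66 to -3.37). Its exons are part of the readthrough gene ISY1-RAB43, with 252 and 286 counts. Summed over RAB43, ISY1-RAB43 and ISY1, the locus had 1461 and 1272 counts, a log2 ratio of 0.01 (-0.10 to 0.12), so a lower level of RAB43 cannot be told apart from a different assignment of reads within the locus.

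**Figure D4:**
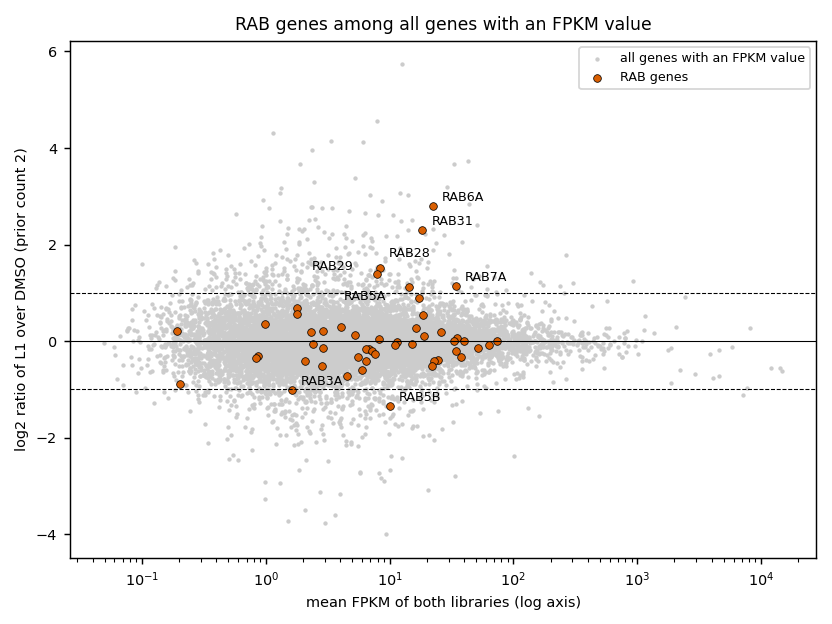
Log2 ratio of L1 over DMSO (prior count of 2) against mean FPKM of both libraries (log axis) for the 13924 genes with an FPKM value (grey) and the 51 RAB genes (orange). Dashed lines mark 2-fold, and the 8 labelled RABs lie beyond them, RAB3A and RAB5B below and the other 6 above.

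The DNA just before the RefSeq starts of RAB6A, RAB31, RAB5A and RAB5B is shown. Among the 51 members, RAB6A and RAB31 differed most between the libraries, and RAB5A and RAB5B differed in opposite directions. Each is the 250 bases before the RefSeq start on the gene's own strand (GRCh38.p14), at chr11:73761075-73761324 (minus strand), chr18:9708051-9708300 (plus), chr3:19946847-19947096 (plus) and chr12:55973699-55973948 (plus). RAB6A and RAB5B have 2 RefSeq start windows each, and the one nearest to the GENCODE start is given. The last bases of each stretch lie inside the GENCODE gene, 63 for RAB6A, 136 for RAB31, 18 for RAB5A and 36 for RAB5B. Capitals mark a match to 1 of the 5 motifs searched on either strand.
RAB6A: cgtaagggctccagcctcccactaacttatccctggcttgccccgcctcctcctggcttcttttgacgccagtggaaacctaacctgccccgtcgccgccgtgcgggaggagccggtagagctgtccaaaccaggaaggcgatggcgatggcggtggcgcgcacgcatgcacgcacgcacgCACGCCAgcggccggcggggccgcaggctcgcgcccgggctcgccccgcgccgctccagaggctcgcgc
RAB31: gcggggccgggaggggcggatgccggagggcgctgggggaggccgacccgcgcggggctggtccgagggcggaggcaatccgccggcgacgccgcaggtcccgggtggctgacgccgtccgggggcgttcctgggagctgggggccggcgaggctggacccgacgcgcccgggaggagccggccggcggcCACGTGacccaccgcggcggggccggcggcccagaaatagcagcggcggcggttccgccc
RAB5A: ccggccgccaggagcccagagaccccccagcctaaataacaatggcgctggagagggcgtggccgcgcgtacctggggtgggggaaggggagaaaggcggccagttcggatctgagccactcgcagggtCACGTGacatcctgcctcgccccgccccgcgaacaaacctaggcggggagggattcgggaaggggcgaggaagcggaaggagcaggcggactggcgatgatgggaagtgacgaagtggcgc
RAB5B: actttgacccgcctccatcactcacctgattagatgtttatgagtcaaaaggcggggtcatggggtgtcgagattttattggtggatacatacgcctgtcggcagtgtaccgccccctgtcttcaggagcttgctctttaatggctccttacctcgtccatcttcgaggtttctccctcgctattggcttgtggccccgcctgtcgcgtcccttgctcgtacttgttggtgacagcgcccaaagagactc

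The motifs were searched from 250 bases before to 50 after the RefSeq start, and positions below are relative to that start. The E-box CACGTG, the letters bound by MYC, USF and the lysosomal regulators of the TFE family, was in 7.26% of 35116 RefSeq windows and in 9.34% of the 14375 windows of genes with an FPKM value. It was in those of RAB31 (first base 60 before the start), RAB5A (121 before) and RAB29 (20 after, so outside the stretch printed). These are 3 of the 6 higher members, and it was in neither RAB5B nor RAB3A. The match of RAB31 lies inside the GENCODE gene, whose start is 136 bases before the RefSeq start used. The xenobiotic response element TNGCGTG, bound by the aryl hydrocarbon receptor, was in 5.51% of windows (7.03% for genes with an FPKM value), and in those of RAB6A (69 before the start) and RAB3A (153 before). The unfolded protein response element TGACGTG was in 1.97% of windows (2.53%) and, of the 8 genes, in that of RAB3A alone (130 before). The 19-letter ER stress response element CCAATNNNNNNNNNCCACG, in 0.0769% of windows (0.118%), and the ETS site CCGGAAG, in 10.3% (17.7%), were in none of the 8. An E-box and the letters TGACGTG can overlap. These matches describe letters in the DNA, and binding was not measured. Only 39 of the 51 members (76.5%) had a RefSeq window, so a comparison of motifs or base composition over the whole family is void.

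Among the genes with an FPKM value that load, unload and carry RAB proteins, none in the lists was 2-fold higher under L1. The share of all genes that were 2-fold higher was 2.85%, so a single list of 8 to 49 genes would hold few such genes. A shortfall over the lists together was not tested. Of 8 genes for prenylation and membrane extraction, none was past 1.5-fold, and the median log2 ratio was -0.07. GDI2, the main GDI of most tissues, had 107.9 FPKM under DMSO and 110.9 under L1. The catalytic subunit RABGGTB of RAB geranylgeranyl transferase had 24.6 and 22.7 FPKM, and its partner RABGGTA had 4.63 and 4.54. CHM, the escort protein that presents RABs to that enzyme, was at 0.36 (0.11 to 0.61), RABIF at -0.43 (-0.64 to -0.23) and RABAC1 at 0.25 (-0.24 summed over its locus).

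Of 54 GEF genes in the list, 49 had an FPKM value, with a median of -0.00. None was 2-fold higher (all genes, 2.85%), and 2 were 2-fold lower, 4.08% of the 49 (all genes, 2.55%). DENND6B, a DENN-domain exchange factor, had 309 counts under DMSO and 107 under L1 (log2 ratio -1.32), and RAB3IL1, an exchange factor for RAB8, had 223 and 79 (-1.28). DENND2D was at -0.83. TRAPPC5, a TRAPP subunit without an FPKM value, had 32 counts under DMSO and 335 under L1 (3.60, interval 3.08 to 4.17), but summed with the genes that overlap it the locus had 582 and 474 counts (-0.08). The highest with an FPKM value were TRAPPC6A at 0.81 and TRAPPC1 at 0.69, subunits of the TRAPP exchange complexes for RAB1, and GAPVD1, an exchange factor for RAB5, at 0.53. Of 42 GAP genes, 37 had an FPKM value, with a median of -0.01 and none past 2-fold. TBC1D20, a GAP for RAB1 and RAB18, was at 0.84, TBC1D4, a GAP for RAB10 known from insulin-controlled glucose transport, at 0.59 and TBC1D8B at 0.32. TBC1D1 was at -0.82, TBC1D24 at -0.48 (0.33 summed over its locus) and TBC1D15, a GAP for RAB7, at -0.37.

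Of 61 effector genes, 49 had an FPKM value, with a median of -0.03, none 2-fold higher and 3 2-fold lower. The lower genes were 6.12% of the 49 (all genes, 2.55%). SYTL1, a RAB27 effector in secretion, had 108 counts under DMSO and 35 under L1 (-1.41, interval -2.01 to -0.85). The RAB11 effectors RAB11FIP5 and RAB11FIP2, which sort cargo in recycling endosomes, had 1525 and 524 counts (-1.33) and 735 and 262 counts (-1.28). Summed with SFXN5, whose exons overlap it, RAB11FIP5 was at -0.79. The highest were VPS33A, a subunit of the HOPS tether of lysosomes, at 0.66 (0.35 summed over its locus), BICD1, which links RAB6 vesicles to dynein, at 0.64, and MICALL1, an effector in endocytic recycling, at 0.43.

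The partners of single subfamilies were grouped after their values were seen. The 5 RAB6 partners RIC1, RGP1, BICD1, BICD2 and GCC2 ranged from -0.06 to 0.64, with a median of 0.12. The 10 RAB5 partners, among them the exchange factor RABGEF1 and the effectors RABEP1, EEA1, RBSN and APPL1, ranged from -0.38 to 0.53 with a median of -0.01. The 12 RAB7 partners, among them the MON1 and CCZ1 exchange factor subunits, RILP and PLEKHM1, ranged from -0.69 to 0.23, and 5 lay above 0. All the ranges of these sets depend on the choice of genes. Genes of the lists that were put in no set included INPP5B at -0.77, VPS8 at -0.45, OCRL at -0.43 and ALS2CL at 0.69 (36 and 50 counts), all outside the RAB5 range. The RAB7 set held the HOPS subunits VPS39 and VPS41, but not VPS33A (0.66), VPS18 (0.16), VPS16 (0.08) and VPS11 (-0.21). Of 5 measured RAB11 partners, RAB11FIP2 and RAB11FIP5 were 2-fold lower. All 8 genes chosen as partners of RAB3 and RAB27 lay below 0, between -1.37 and -0.02, while 47.3% of all genes lay above 0. They include RAB3IL1 (-1.28), named above as an exchange factor for RAB8. Because the 8 were chosen after their values were seen, their common direction is not a result about RAB3 or RAB27. The counting intervals of RAB3IP (-0.20 to 0.03), RAB3GAP1 (-0.12 to 0.07) and UNC13D (-0.07 to 0.00) included 0, so their direction is not secure.

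The ARF and RAS families of small GTPases gave the RABs a comparison. Of 23 ARF family genes with an FPKM value, none was 2-fold higher, and SAR1A, the GTPase of COPII vesicles, was lower, with 2877 counts under DMSO and 871 under L1 (-1.51). Of 16 RAS family genes, RALB was 2-fold lower, with 1916 and 568 counts (-1.54), and none was higher. The medians were -0.06 and 0.03. A difference between these families and the RABs was not tested. With 2.85% of all genes 2-fold higher and 2.55% lower, lists of 23 and 16 genes are too small to show a shortfall. The remaining genes that were highest or lowest in these lists lay closer to 0. Among the ARF genes they included ARL3 at 0.41, ARF1 at 0.28 and ARF3 at -0.39. The RAS genes were DIRAS1 at 0.42 (-0.40 summed over its locus), RHEBL1 at 0.41, RIT1 at 0.29, RRAS2 at -0.19 and RRAS at -0.58.

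**Figure D5:**
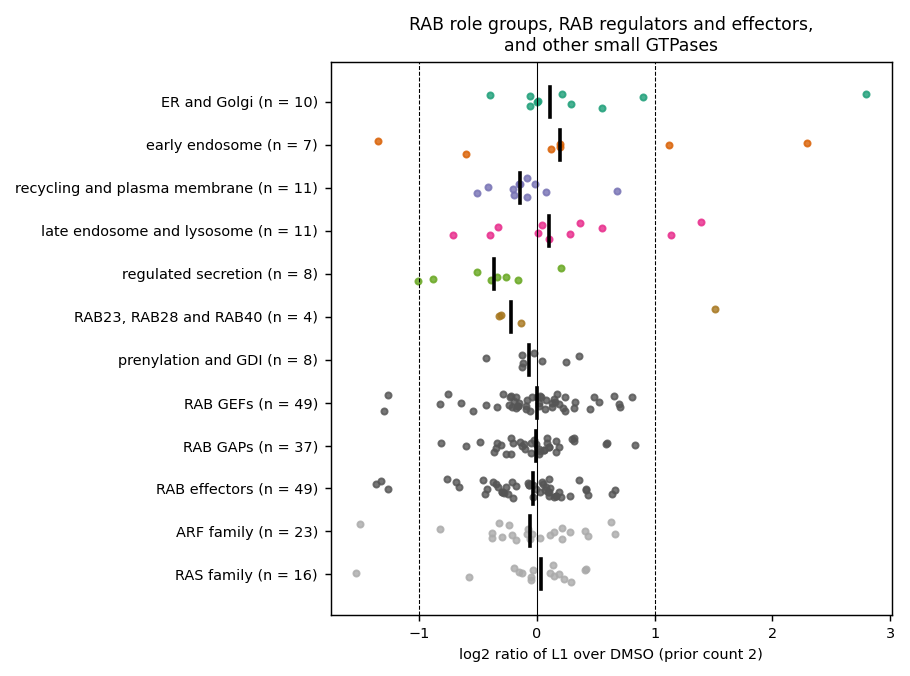
Log2 ratio of L1 over DMSO (prior count of 2) of single genes with an FPKM value (points) in the 6 RAB compartment groups, in the lists of RAB regulators and effectors and in 2 other families of small GTPases, with the median of each (black bars) and 2-fold marked by dashed lines. The medians lie between -0.36 (regulated secretion) and 0.20 (early endosome), and the points beyond the upper line in these lists are RABs.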

How the data were processed

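RNA of HEL cells was sequenced in 1 library per condition. Per the submitters' processing notes, reads were handled with fastp 2.0, HISAT2 2.1.0 and StringTie on hg38. The annotation, the counting program and its use of strand are not given in the sources used here. The authors deposited raw read counts for 61806 genes and FPKM values for 13924. The deposited FPKM values give the same ratios between libraries as the TMM-scaled counts, and so are not independent evidence. One row of the FPKM table that named no gene was left out.

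Counts were scaled with edgeR 4.0.16 (TMM, R 4.3.3), without its tests. DESeq2 1.42.0 gave alternative size factors. Other steps used Python 3.11.15, pandas 2.3.3 and scipy 1.17.1. Calls, medians and list values used a prior count of 2, and the log2 ratio of a single gene used none, with an exact 95% Clopper-Pearson interval. Members past 1.5-fold, the 10 with the highest mean FPKM and their subfamilies were named with counts, and in each list the 3 highest and 3 lowest genes of at least 100 counts. The results of some of these genes, and of another list that also held a gene more than 2-fold higher, are not reported here. The members and gene lists were chosen with earlier results of these data known. Overlaps and shared 31-base words came from GENCODE 29, which held 58254 of the gene identifiers, and overlaps with the other 3552 were not tested. Promoters came from RefSeq (GRCh38.p14). The scripts were tested on simulated data. Replicate tests were not possible.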

Additional observations from a re-analysis of the deposited data

How the results depend on the processing

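The number of RABs at least 2-fold lower under L1, 2 with TMM scaling and a prior count of 2, was 1 with total counts, the upper quartile, a prior count of 5, log2(FPKM + 1), log2(FPKM + 0.1) or a whole counting interval past 2-fold, and 5 at 1.5-fold. RAB3A was the member that left the count. Without it RAB5B was the single member past 2-fold in that direction. Over all RAB genes with at least 10 counts or at least 1 count in a library the number lower was 3, with RAB43. The number of members above 0, 23 of 51, was 15 of 36 in an alternative chosen after seeing the data, with members that shared under 5% of their words and had no overlapping gene on the same strand. The number at least 2-fold higher was 4 of those 36, 7 over all RAB genes with a count and 8 at 1.5-fold. The median of the members lay between -0.09 and -0.01 in the settings run, and the 65 medians of the lists and compartment groups stayed within their spread. With overlapping genes summed, 4 of the 68 genes followed changed direction, which were RAB5C (-0.12), RABAC1 (-0.24), TBC1D24 (0.33) and DIRAS1 (-0.40). Of 341 values of these genes in the settings run, 308 stayed within their counting interval and 29 moved beyond it with the same direction, 20 of them with log2(FPKM + 1). The cause was not tested. No paired analysis was possible because there is a single DMSO library and a single L1 library, and for the same reason no library could be left out. Counting error was small for most members, with a median of 1085 counts under DMSO, but RAB27A, RAB39A, RAB26 and RAB3C rest on under 100 counts in each library, and their values are correspondingly imprecise.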

Other observations

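RAB43, RAB4B-EGLN2 and MIA-RAB4B were not the only overlapping genes with counts under DMSO and few or none under L1. AL358472.6, which overlaps RAB13, had 465 counts under DMSO and 119 under L1. The genes AC048338.1, which overlaps VPS33A, and AC093525.2, which overlaps TBC1D24, had 717 and 70 counts under DMSO and 0 under L1. These genes were picked after their values were seen. For the RAB43, RAB4B and RAB13 loci the summed counts of all genes gave log2 ratios of 0.01, 0.40 and -0.03. Most counts of these sums came from genes that do not overlap the RAB directly, namely ISY1, EGLN2, and SLC39A1 with JTB. Whether the assignment of reads differed between the libraries was not tested.

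Among transcripts named after a RAB but not coding for one, RAB4A-AS1 had 558 counts under DMSO and 476 under L1, and RAB30-DT had 480 and 514 (log2 ratio 0.31, interval 0.13 to 0.49). RAB11B-AS1 was at a log2 ratio of -0.07, RAB33B-AS1 at 0.03 and RAB35-AS1 at 0.13, with counting intervals that included 0. The pseudogene RAB43P1 had 10 and 22 counts (1.35, interval 0.21 to 2.59).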
